A study of Danio rerio with 6 samples.

Results

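The immunoglobulin heavy chain genes of the adult zebrafish olfactory epithelium were described segment by segment. The members were all genes of the deposited count table whose name began with ighv, ighj, ighd, ighm or ighz, leaving out ighmbp2, which is not an immunoglobulin gene. These were 56 of the 33737 genes in the table, namely 39 variable segments, 7 joining segments, 7 diversity segments and 3 constant genes. The olfactory epithelium was taken from fish exposed to the odorant phenylethyl alcohol (PEA) every day for 3 weeks of development, and from control fish that received only distilled water. Each group had 3 libraries, labelled as biological triplicates, and all fish were of the New wild type (AB derived line) strain and 6 months old per the labels. The labels give 10 fish for each experimental group and do not say whether these were pooled in each library, so the p-values measure the spread between these libraries.

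A B cell makes an antibody heavy chain by joining a variable, a diversity and a joining segment in its DNA, and the joined exon is then spliced to the exons of a constant gene that sets the antibody class. Zebrafish carry constant genes for IgM, the general serum antibody and B cell receptor of fish, for IgD, which is made with IgM by alternative splicing, and for IgZ, also called IgT, which is known in trout as an antibody of mucosal surfaces. The cells of a B cell clone share the variable segment they joined, and other clones can use the same segment. A few expanded clones or antibody-secreting plasma cells can fill a library with the reads of a few segments, but segment counts do not identify a clone. In whole tissue, more B cells and more heavy chain RNA in each cell cannot be told apart.

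Of the 56 genes, 44 had at least 1 count in the 6 libraries and 12 had none. The genes without a count were 4 variable segments, 6 of the 7 diversity segments, and the joining segments ighj1-2 (ENSDARG00000096292) and ighj2-1 (ENSDARG00000096321). The only diversity segment with a read was ighd2-3, with 1 count in PEA library 1. Library totals ran between 43590575 and 49085973 counts, at which 3 counts, the limit that a count of 0 allows, were worth 0.0586 to 0.0697 CPM, the count scaled to library size with edgeR's TMM factors. Heavy chain genes took between 0.00114% and 0.00508% of a library's counts, so every statement below rests on a small number of reads.

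The libraries carried the markers of their labelled tissue. The summed level of 9 olfactory sensory neuron markers, led by gng13b, s100z and cnga4, all parts of sensory neuron signalling or its calcium handling, was 3029 to 3633 CPM in PEA libraries and 3120 to 3287 CPM in control libraries. The PEA and the control library numbered 1 stood apart in fkbp5, a stress hormone response gene. It was at 1621 CPM in PEA library 1 and 1414 CPM in control library 1. The other libraries were lower but split by group. They were at 311 and 322 CPM in PEA libraries 2 and 3, against 99.3 and 101 CPM in control libraries 2 and 3. Because the libraries numbered 1 stood apart, the main sums and fold changes below were also computed for the libraries numbered 2 and 3 only. Those values still hold the fkbp5 difference between groups, and its part in the heavy chain difference was not tested.

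The IgM constant gene carried most of the heavy chain reads. It is listed under the name ighv1-4 (ENSDARG00000096355) in the deposited table, although its identifier is now named ighm, and it is called ighm here. A second row named ighv1-4 (ENSDARG00000096301), which still bears that name as a variable segment, had no count in any library. The ighm row held 6449 of the 7678 heavy chain counts, or 84.0%. It made up 86.3%, 85.9% and 82.6% of the heavy chain counts in PEA libraries 1, 2 and 3, against 87.5%, 76.5% and 78.3% in control libraries 1, 2 and 3. The shares averaged 84.9% ± 2.03 in PEA libraries and 80.8% ± 5.87 in control libraries (SD, n = 3 each), and the groups overlapped, since control library 1 had the highest share of all. The Wilson 95% interval was 84.6% to 87.8% in PEA library 1 and 84.9% to 89.6% in control library 1. These intervals cover counting error only, and the shares are of counts and not per length of gene, and a longer gene collects more reads.

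IgM heavy chain reads were more numerous in every PEA library than in any control library. The ighm row had 1598, 1996 and 992 counts in PEA libraries 1, 2 and 3, against 670, 430 and 763 counts in control libraries 1, 2 and 3. Scaled to depth these were 36.3, 46.4 and 21.0 CPM in PEA libraries, against 15.5, 8.41 and 15.3 CPM in control libraries. PEA library 3 was the lowest of its group and control library 2 the lowest of all. The level averaged 34.6 ± 12.8 CPM in PEA libraries and 13.1 ± 4.06 CPM in control libraries (SD, n = 3 each). The log2 fold change by edgeR's quasi-likelihood test was 1.40 (SE 0.31), with an unadjusted p of 0.00184 and an adjusted p of 1.00 over the 20628 genes tested. DESeq2 gave a log2 fold change of 1.41 (SE 0.28) with an adjusted p of 0.00761, so the call depended on the tool. Without any 1 library the edgeR log2 fold change lay between 1.13 and 1.66, and with the libraries numbered 2 and 3 only it was 1.51. Over all edgeR settings the adjusted p of ighm ran between 0.701 and 1.00. The DESeq2 value of 0.00761 is from all 6 libraries, and no DESeq2 value with a library left out is given for ighm.

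**Figure D1:**
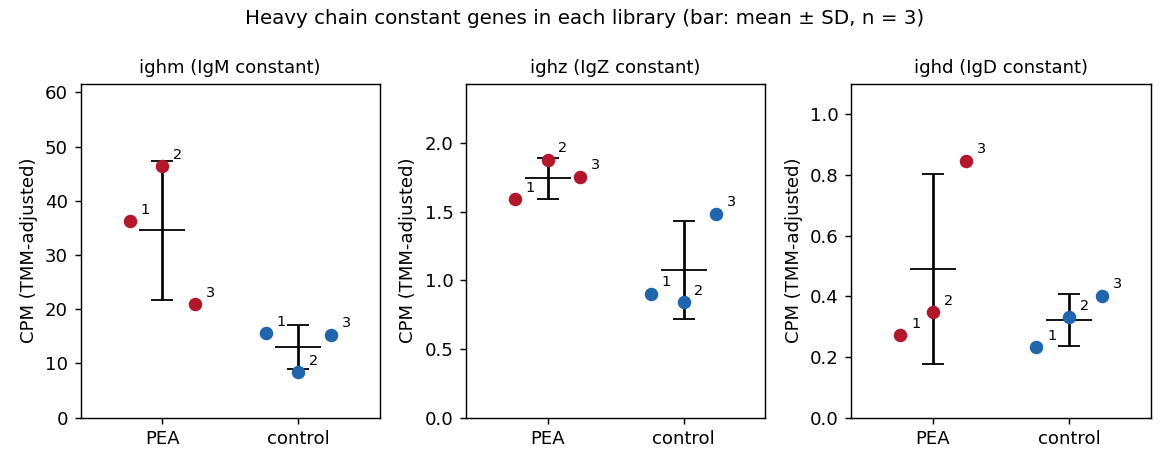
Level of the 3 heavy chain constant genes in CPM (vertical axes, each on its own scale from 0) in PEA and control libraries, with the library number beside each point and the mean ± SD of 3 libraries as the black bar. The PEA libraries lie above the control libraries for ighm, by a narrow gap for ighz, and overlap them for ighd, where PEA library 3 stands highest at 0.847 CPM.

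The other constant genes were far less read. The gene of IgZ, ighz (ENSDARG00000096280, now named ight), had 70, 81 and 83 counts in PEA libraries 1, 2 and 3, against 39, 43 and 74 counts in control libraries 1, 2 and 3. In CPM the groups were just apart, with 1.59, 1.88 and 1.76 CPM in PEA libraries against 0.904, 0.841 and 1.49 CPM in control libraries, but the raw counts of PEA library 1 were below those of control library 3. The edgeR log2 fold change of ighz was 0.69 (SE 0.27), with an unadjusted p of 0.0323 and an adjusted p of 1.00, so ighz did not pass the test. The libraries numbered 2 and 3 alone gave 0.65.

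The gene of IgD, ighd (ENSDARG00000096248), was among the immune genes that the study singled out from these same libraries. The paper reports them as up-regulated in correlation with olfactory memory. The direction of ighd here is therefore not independent evidence. This gene had 12, 15 and 40 counts in PEA libraries 1, 2 and 3, against 10, 17 and 20 counts in control libraries 1, 2 and 3. Only PEA library 3 stood above the control libraries, and the other PEA libraries lay within their range. The edgeR log2 fold change of ighd was 0.60 (SE 0.48), with an adjusted p of 1.00, and without PEA library 3 it was -0.06. The libraries numbered 2 and 3 alone gave 0.71. Within the constant genes, ighd took 0.714%, 0.717% and 3.59% of the counts in PEA libraries 1, 2 and 3, against 1.39%, 3.47% and 2.33% in control libraries 1, 2 and 3. The share of ighz was 4.17%, 3.87% and 7.44% in PEA libraries, against 5.42%, 8.78% and 8.63% in control libraries. The groups overlapped in both shares.

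Summed over all 56 genes, the heavy chain counts were 1852, 2323 and 1201 in PEA libraries 1, 2 and 3, against 766, 562 and 974 in control libraries 1, 2 and 3. The sum averaged 40.5 ± 14.3 CPM in PEA libraries and 16.1 ± 4.52 CPM in control libraries (SD, n = 3 each), a ratio of means of 2.52 or 1.33 on the log2 scale, and the groups did not overlap. Because ighm holds most of the sum, the sum was also taken without it. The other 55 genes had 254, 327 and 209 counts in PEA libraries 1, 2 and 3, against 96, 132 and 211 counts in control libraries 1, 2 and 3. Without ighm, the level was 5.77, 7.60 and 4.43 CPM in PEA libraries, against 2.23, 2.58 and 4.24 CPM in control libraries. PEA library 3 and control library 3 were then nearly level, and in raw counts control library 3 was the higher by 2. The ratio of means fell to 1.97 without ighm, or 0.98 on the log2 scale. With the libraries numbered 2 and 3 only, the log2 ratio was 1.38 for the whole sum and 0.82 without ighm. No p is given for these sums, because the members were chosen with results known.

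**Figure D2:**
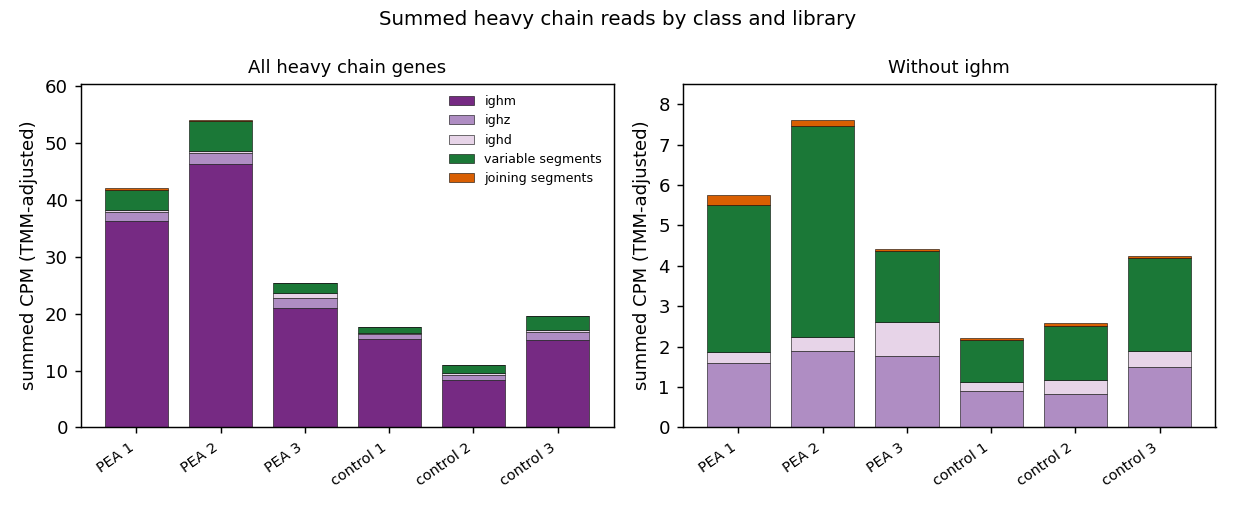
Summed level in CPM (vertical axes, from 0) of the heavy chain genes in each of the 6 libraries, stacked by class, for all genes on the left and without ighm on the right. The ighm row fills most of each bar on the left, and on the right PEA library 3 at 4.43 CPM and control library 3 at 4.24 CPM are nearly level.

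The share of mitochondrially encoded genes moved with the groups too, at 7.48%, 9.68% and 7.25% of counts in PEA libraries 1, 2 and 3, against 6.23%, 6.81% and 6.91% in control libraries 1, 2 and 3. Its part in the heavy chain difference was not tested.

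Set against all genes, most heavy chain genes with enough reads to test were higher in PEA libraries by their fold change, but none passed edgeR's threshold. Only 5 members passed edgeR's filter on low counts, and the edgeR log2 fold change exceeded 0 in 4 of them, with a median of 0.69, against 48.5% and a median of -0.005 over all genes tested. Among these, ighv13-2 passed mostly through its PEA libraries, with 16, 35 and 14 counts there, against 0, 16 and 4 in control libraries. Its direction is therefore not independent of the filter. At an adjusted p under 0.05 edgeR called 0 of the 5 members and 0.0% of all genes, the lowest adjusted p by edgeR of any gene being 0.481. At an unadjusted p under 0.05 edgeR had 2 members, ighm and ighz, against 1.66% of all genes. DESeq2, which keeps genes of low counts, called 1 of the 44 members with a count, ighm, against 0.0184% of genes, and had 7 members at an unadjusted p under 0.05, against 1.28% of genes. Those 7 were ighm, ighz, ighv13-2, ighv2-1, ighv7-1, ighv5-1 and ighv5-7. PEA library 2 held 83.6% of the counts of ighv2-1, and PEA library 1 held 83.3% of those of ighv7-1. In all 6 libraries together ighv5-1 had 12 counts and ighv5-7 had 17. The DESeq2 log2 fold change was above 0 in 33 of the 44 members, with a median of 0.77, against 50.8% and a median of 0.003 over all genes with a count. Of the 44, 7 had reads in PEA libraries only, ighv5-1 and ighv5-2 among them, and 3 in control libraries only. The direction of these was fixed by the reads that brought them into the set. In 6 of the 44 members (13.6%), all PEA libraries were above all control libraries in both counts and CPM, against 0.838% of genes with a count. These were ighm, ighj2-2, ighv2-1, ighv5-1, ighv5-2 and ighv5-7. The reverse order was found in 0 members, against 2.04% of genes. The members are reads of the same cells and locus, so they are not independent of each other.

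The variable segments together had 696 counts, of which 468 were in PEA libraries and 228 in control libraries. By library they were 160, 225 and 83 in PEA libraries 1, 2 and 3, against 44, 69 and 115 in control libraries 1, 2 and 3. The groups overlapped, because PEA library 3 lay below control library 3. The summed level gave 3.64, 5.23 and 1.76 CPM in PEA libraries, against 1.02, 1.35 and 2.31 CPM in control libraries, a log2 ratio of means of 1.18 that ran between 0.79 and 1.58 when any 1 library was left out and was 0.93 with the libraries numbered 2 and 3 only. For every 100 ighm counts there were 10.0, 11.3 and 8.37 variable segment counts in PEA libraries, against 6.57, 16.0 and 15.1 in control libraries. The variable share of all heavy chain counts averaged 8.41% ± 1.40 in PEA libraries and 9.94% ± 3.64 in control libraries (SD, n = 3 each).

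A different variable segment led in most libraries. In PEA library 1 ighv7-1 (ENSDARG00000096241) held 28.1% of the variable segment counts (Wilson 95% interval 21.7% to 35.5%). In PEA library 2 ighv2-1 (ENSDARG00000096406) held 27.1% (21.7% to 33.3%). In PEA library 3 ighv13-2 (ENSDARG00000096372) led with 16.9% (10.3% to 26.3%). The control libraries were likewise led by different segments. In control library 1 ighv3-2 (ENSDARG00000096357) held 34.1% (21.9% to 48.9%). In control library 2 ighv13-2 led again with 23.2% (14.8% to 34.4%). In control library 3 ighv14-1 (ENSDARG00000096418) held 45.2% (36.4% to 54.3%), the largest share of any segment in any library. With the leading segment of each library taken out, 115, 164 and 69 counts remained in PEA libraries 1, 2 and 3, against 29, 53 and 63 in control libraries 1, 2 and 3. The PEA libraries then no longer overlapped the control libraries, and the log2 ratio of mean CPM was 1.41. This sum was chosen after the values were seen and is a description.

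**Figure D3:**
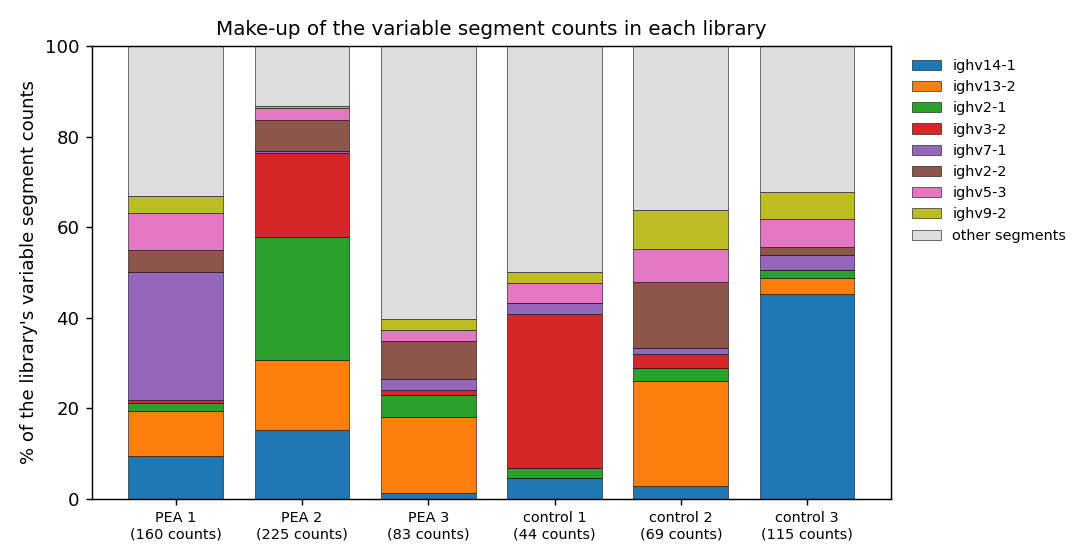
Share of each library's variable segment counts (vertical axis, %) taken by the 8 most read segments, stacked in the same order in each of the 6 libraries, with all other segments in grey and the library's number of variable segment counts under its name. Among the named segments, the tallest piece differs between most libraries, reaching 45.2% for ighv14-1 in control library 3 and 28.1% for ighv7-1 in PEA library 1. The grey piece is taller than any named segment in several libraries.

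The 15 most read variable segments held 588 of the 696 counts (84.5%), and 5 of them had more than 50% of their counts in 1 library. The segment ighv14-1 had 15, 34 and 1 counts in PEA libraries 1, 2 and 3, against 2, 2 and 52 counts in control libraries 1, 2 and 3. PEA library 2 and control library 3 were high and the rest of each group lower, and its edgeR log2 fold change was -0.01 (SE 1.17), or 3.08 without control library 3. The segment ighv13-2 had 16, 35 and 14 counts in PEA libraries, against 0, 16 and 4 counts in control libraries. It was the only variable segment to lead more than 1 library, and its edgeR log2 fold change was 1.82 (SE 0.81) with an adjusted p of 1.00. Control library 2 matched PEA library 1 in raw counts of ighv13-2. In CPM it was at 0.3128, between PEA library 3 at 0.2965 and PEA library 1 at 0.3636. Without control library 2 the log2 fold change was 3.44.

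The segment ighv2-1, also singled out by the study from these libraries, had 3, 61 and 4 counts in PEA libraries 1, 2 and 3, against 1, 2 and 2 counts in control libraries 1, 2 and 3. All PEA libraries were above the control libraries, but 83.6% of all its counts came from PEA library 2. It was under edgeR's filter, and DESeq2 gave a log2 fold change of 3.94 (SE 1.18) with an adjusted p of 0.859, or 1.15 without PEA library 2. Across its alternatives the adjusted p of ighv2-1 from DESeq2 or edgeR ran between 0.105 and 1.00. The segment ighv5-3 (ENSDARG00000096388), singled out by the study as well, had 13, 6 and 2 counts in PEA libraries, against 2, 5 and 7 counts in control libraries. The groups overlapped in ighv5-3, where PEA library 3 equalled the lowest control library, and the DESeq2 log2 fold change was 0.74 (SE 1.00), or -0.07 without PEA library 1.

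Further segments were carried by 1 library. The segment ighv7-1 had 45, 1 and 2 counts in PEA libraries 1, 2 and 3, against 1, 1 and 4 counts in control libraries 1, 2 and 3. Its DESeq2 log2 fold change of 3.14 (SE 1.30) turned to -0.32 without PEA library 1. The segment ighv3-2 had 1, 42 and 1 counts in PEA libraries, against 15, 2 and 0 counts in control libraries, with a value of 1.41 (SE 2.20) that turned to -2.56 without PEA library 2 and was 4.68 with the libraries numbered 2 and 3 only. In both segments the remaining PEA libraries lay within the range of the control libraries. In ighv6-2 (ENSDARG00000096303), with 2, 9 and 1 counts in PEA libraries against 0, 0 and 2 counts in control libraries, PEA library 2 held 64.3% of the counts.

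When all variable families were looked over, the ighv5 family was the only one whose counts did not overlap between groups. Its 7 segments together had 33, 15 and 19 counts in PEA libraries 1, 2 and 3, against 10, 9 and 9 counts in control libraries 1, 2 and 3. This sum includes ighv5-7, ighv5-1 and ighv5-2, so their values below are not separate results. The groups overlapped in each of the other ighv5 segments. The family was picked out after the values of all families were seen. All PEA libraries were above all control libraries, in counts and CPM, in 0.838% of genes with a count. That share is for single genes, and none was computed for sums over families, so how unusual the ighv5 sum is was not tested. The segment ighv5-7 (ENSDARG00000096244) had 3, 4 and 9 counts in PEA libraries, against 0, 0 and 1 counts in control libraries, and the DESeq2 log2 fold change was 3.98 (SE 1.69) with an adjusted p of 1.00. Read in every PEA library and in no control library, ighv5-1 (ENSDARG00000096337) had 7, 3 and 2 counts. Its pooled PEA level was 4.29 times a floor of 3 counts over the control group. This ratio leaves out the counting error of the PEA reads and the spread between libraries. The DESeq2 log2 fold change of ighv5-1 was 4.56 (SE 1.91), and DESeq2 did not call it. The segment ighv5-2 (ENSDARG00000096267) had 1, 1 and 3 counts in PEA libraries and none in control libraries, 1.79 times the same floor. Its DESeq2 log2 fold change was 3.255 (SE 2.56) and was not called either. Family members are similar in sequence, and the sources used here do not name the counting setting for reads that align to several segments.

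The rest of the 15 had no more than 42 counts each. The segment ighv2-2 (ENSDARG00000096424) had 8, 15 and 7 counts in PEA libraries, against 0, 10 and 2 counts in control libraries. Its DESeq2 log2 fold change was 1.51 (SE 1.05), and control library 2 lay within the range of the PEA libraries. Other segments had more reads in control libraries. The segment ighv9-2 (ENSDARG00000096353) had 6, 1 and 2 counts in PEA libraries, against 1, 6 and 7 counts in control libraries. The segment ighv4-3 (ENSDARG00000096394) had 5, 0 and 1 counts in PEA libraries, against 3, 3 and 4 counts in control libraries. The segment ighv6-1 (ENSDARG00000096276), the most even of the set, had 4, 2 and 3 counts in PEA libraries, against 3, 3 and 4 counts in control libraries. In each of these the groups overlapped, as they did in ighv10-1 and ighv1-2, whose libraries held 0 to 7 counts. In ighv9-1 the counts were 5, 2 and 3 in PEA libraries, against 1, 1 and 2 in control libraries. The groups were just apart in CPM there but tied at 2 counts. The 20 less read segments had at most 12 counts each and 108 in total.

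**Figure D4:**
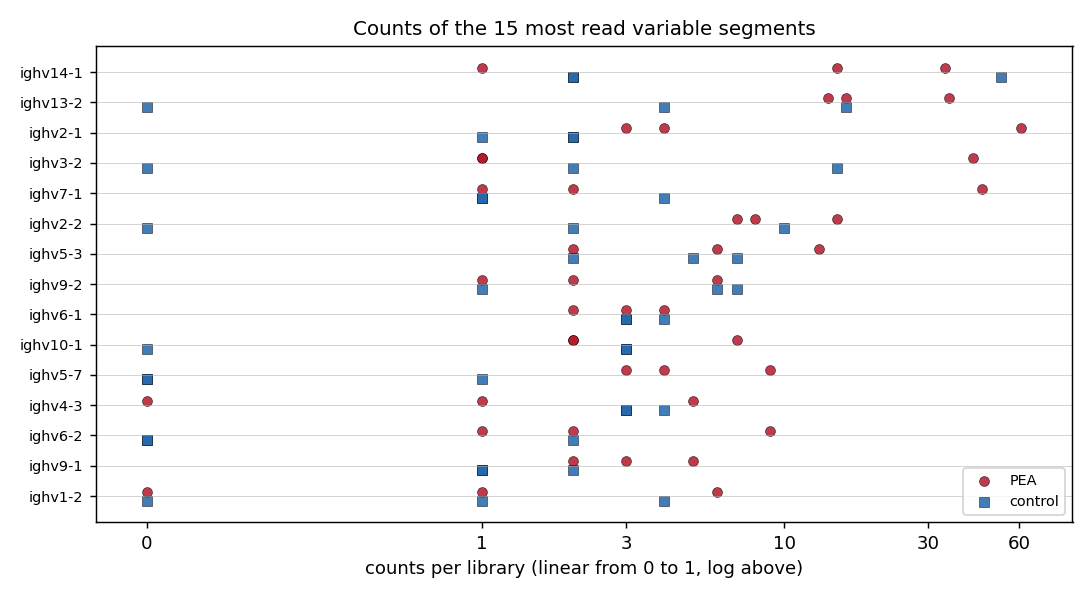
Counts in each library (horizontal axis, linear from 0 to 1 and logarithmic above) of the 15 most read variable segments, with red circles for the 3 PEA libraries and blue squares for the 3 control libraries. Single libraries stand far to the right in ighv2-1, ighv3-2 and ighv7-1 (PEA, 61, 42 and 45 counts) and in ighv14-1 (control, 52 counts).

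The joining segments, short stretches that link the variable region to the constant exons, had 28 counts in all. They were read 11, 6 and 3 times in PEA libraries 1, 2 and 3, against 3, 3 and 2 times in control libraries 1, 2 and 3. The segment ighj2-2 (ENSDARG00000096254) held 16 of these counts, with 7, 4 and 2 in PEA libraries against 1, 1 and 1 in control libraries. The PEA libraries did not overlap the control libraries in ighj2-2, but the DESeq2 log2 fold change of 2.23 (SE 1.42) had an adjusted p of 1.00. The segment ighj2-4 (ENSDARG00000096294) had 2, 0 and 1 counts in PEA libraries, against 2, 0 and 0 in control libraries. The segment ighj2-5 (ENSDARG00000096330) had 1, 2 and 0 counts in PEA libraries, against 0, 2 and 0 in control libraries. The groups overlapped in both. Of the remaining joining segments, ighj2-3 (ENSDARG00000096366) had its 1 count in PEA library 1 and ighj1-1 (ENSDARG00000096351) its 1 count in control library 3.

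The number of variable segments with at least 1 count was 28, 21 and 27 of 39 in PEA libraries 1, 2 and 3, against 18, 20 and 23 in control libraries 1, 2 and 3. The groups overlapped, since PEA library 2, the library with the most variable segment counts, had fewer segments than control library 3. With at least 3 counts asked for, the numbers were 15, 9 and 10 in PEA libraries, against 4, 9 and 11 in control libraries. PEA library 3 reached 27 segments with 83 variable segment counts, and PEA library 2 reached 21 segments with 225.

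Across libraries, 11 members were read in all 6, and 7 of these were variable segments. Another 7 members had reads in 1 library only. These were ighv4-5, ighv8-2, ighj2-3 and ighd2-3 in PEA library 1, ighv8-1 in PEA library 3, ighv4-9 in control library 2 and ighj1-1 in control library 3, each with 1 or 2 counts. No member with 5 or more counts was limited to 1 library. Of the 8 members with a summed count of 1 or 2, 87.5% were in 1 library only, against 71.3% of all genes with so few counts. Reads in PEA libraries only were found for 7 genes with 24 counts in all, among them ighv5-1 and ighv5-2. Reads in control libraries only were found for 3 genes, ighv4-7, ighv4-9 and ighj1-1, with 5 counts in all. Of the 26 members with a summed count of 1 to 12, 26.9% were read in PEA libraries only and 11.5% in control libraries only, against 20.3% and 20.8% of all genes with such counts.

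**Figure D5:**
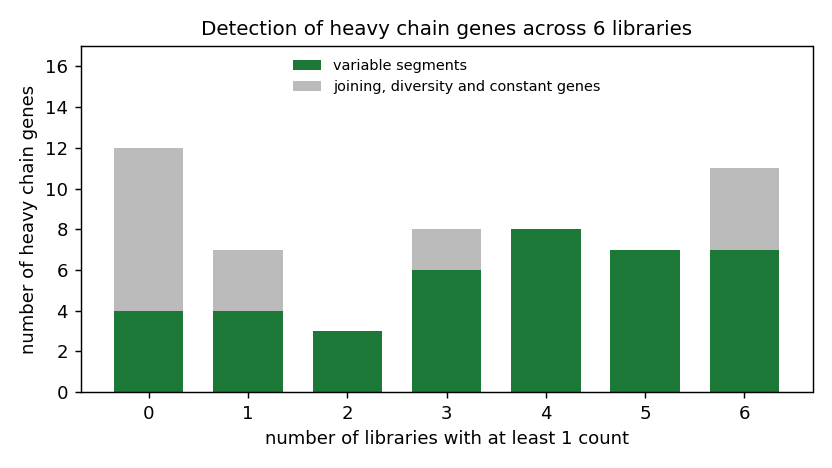
Number of the 56 heavy chain genes (vertical axis) by the number of libraries, out of 6, in which they had at least 1 count (horizontal axis), with variable segments in green and joining, diversity and constant genes in grey. Genes without a count (12) and genes read in every library (11) form the tallest bars.

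Light chains, which pair with heavy chains in every antibody, were also read at a low level. The table held 19 light chain genes, 5 of which passed edgeR's filter, with 0 called, 2 at an unadjusted p under 0.05, 4 above 0 and a median log2 fold change of 0.87. Over all genes tested edgeR had 0.0% called, 1.66% at an unadjusted p under 0.05 and 48.5% above 0. Their summed level was 5.91, 4.23 and 3.92 CPM in PEA libraries 1, 2 and 3, against 2.78, 2.19 and 3.58 CPM in control libraries 1, 2 and 3. The constant gene igl3c3 had 86, 68 and 41 counts in PEA libraries, against 15, 12 and 24 counts in control libraries, with an edgeR log2 fold change of 2.04 (SE 0.40) and an adjusted p of 1.00. The constant gene igic1s1 had 36, 42 and 41 counts in PEA libraries, against 11, 13 and 29 counts in control libraries, with a log2 fold change of 1.27 (SE 0.37). For both genes all PEA libraries were above the control libraries in counts and CPM. This order held for 2 of the 19 light chain genes, against 0.838% of genes with a count. The reverse order held for 1 of them, against 2.04% of genes. The third most read light chain gene, igl1c3, had 23, 9 and 33 counts in PEA libraries, against 26, 20 and 30 counts in control libraries. The constant gene igl2c1 went the other way, with 5, 5 and 3 counts in PEA libraries, all below the 16, 7 and 10 counts in control libraries, and was under edgeR's filter. DESeq2 called 1 of the 19 light chain genes, against 0.0184% of all genes.

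No gene of B cell identity and receptor signalling passed the test. Of 13 such genes tested, led by swap70b, lyn and swap70a, edgeR called 0, with 0 at an unadjusted p under 0.05 and a DESeq2 count of 0. Their log2 fold changes exceeded 0 in 8 genes, with a median of 0.13. Their summed level was 123, 105 and 114 CPM in PEA libraries 1, 2 and 3, against 99.1, 107 and 110 CPM in control libraries 1, 2 and 3, and the groups overlapped. The most read of these genes also serve other blood cells. The more specific cd79a, a signalling chain of the B cell receptor, had 54, 65 and 66 counts in PEA libraries, against 56, 49 and 67 counts in control libraries, with an edgeR log2 fold change of 0.20 (SE 0.23). The B cell transcription factor pax5 had 11, 5 and 14 counts in PEA libraries, against 5, 10 and 13 counts in control libraries. In both genes the groups overlapped. The gene cd22 had 69, 27 and 38 counts in PEA libraries, against 60, 67 and 59 counts in control libraries. Its edgeR log2 fold change was -0.37 (SE 0.34), and the groups overlapped in it too. CXCR5, CD37 and another gene listed as CD22 were also below 0, at -0.13, -0.04 and -0.06. The highest fold change of the list was that of cd40, at 0.42 (SE 0.23) by edgeR. Its counts were 505, 368 and 503 in PEA libraries, against 221, 431 and 463 in control libraries, and the groups overlapped. The linker blnk, which acts below the B cell receptor, was just apart in CPM, at 8.77, 7.07 and 8.07 CPM in PEA libraries against 6.37, 6.74 and 6.93 CPM in control libraries, but its raw counts overlapped and its edgeR log2 fold change was 0.25 (SE 0.14) with an adjusted p of 1.00.

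Plasma cell genes and genes of antigen receptor assembly and editing had medians near that of all genes. Of 7 plasma cell and secretion genes tested, led by xbp1, creb3l2 and pou2f2a, edgeR called 0, 2 were above 0 and the median log2 fold change was -0.09. These were the genes found by name out of 13 listed, and mzb1, sdc1, tnfrsf17 and pigr were not found. Most of the summed level of 148 to 267 CPM was xbp1, at 120 to 242 CPM, so the sum says little of the other genes listed. The plasma cell regulator prdm1a had 136, 130 and 173 counts in PEA libraries, against 123, 209 and 157 counts in control libraries. Of 10 genes of antigen receptor assembly and editing tested, led by hmgb2b, prkdc and xrcc4, edgeR called 0, 4 were above 0 and the median was -0.03. The recombinase gene rag1, which zebrafish also express in olfactory sensory neurons, had 692, 761 and 721 counts in PEA libraries, against 647, 873 and 922 counts in control libraries. Neither list had a gene at an unadjusted p under 0.05 by edgeR or a call by DESeq2.

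The summed levels of the markers of other blood cells overlapped between groups. The summed level of 6 T cell markers, led by il7r, zap70 and cd4, was 57.9 to 70.1 CPM in PEA libraries and 56.8 to 71.6 CPM in control libraries. The summed level of 8 neutrophil markers was led by mmp9, ncf1 and lyz. It was 207 to 248 CPM in PEA libraries and 193 to 253 CPM in control libraries, with mmp9 alone at 126 to 178 CPM. Of the 8, 3 had a log2 fold change above 0, with a median of -0.10, against -0.005 over all genes tested. The raw counts of mpx were 155, 107 and 153 in PEA libraries, all below the 224, 159 and 168 in control libraries. Those of lect2l were 145, 121 and 126, all below 165, 149 and 168. In CPM the groups overlapped in mpx and lect2l, and edgeR called neither. The largest change of the 8 went the other way, in mmp13a, at 0.45 (SE 0.295) by edgeR. Its counts were 72, 42 and 87 in PEA libraries, against 57, 53 and 45 in control libraries, and the groups overlapped. The genes mmp9 and ncf1 were also above 0, at 0.03 and 0.09. The summed level of 12 genes listed as macrophage markers was led by cd74a, cd74b and mpeg1.1. It was 5719 to 6601 CPM in PEA libraries and 5455 to 6288 CPM in control libraries. Most of it was cd74a, at 3374 to 4134 CPM, and cd74b, at 1786 to 2088 CPM, so it says little of the other genes listed. The summed level of 6 red cell markers, led by the globins hbaa1 and ba1 and by alas2, was 145 to 171 CPM in PEA libraries and 124 to 184 CPM in control libraries. Single markers moved either way. The neutrophil gene npsn had 290, 272 and 286 counts in PEA libraries, against 366, 363 and 339 counts in control libraries, with all PEA libraries below the control libraries and an edgeR log2 fold change of -0.24 (SE 0.14). A macrophage marker listed as MFAP4 (1 of 14) was apart the other way in CPM, at 12.3 to 15.2 CPM in PEA libraries and 9.21 to 11.6 CPM in control libraries, with a log2 fold change of 0.35 (SE 0.14). Other listed MFAP4 genes went either way. MFAP4 (3 of 14) and MFAP4 (6 of 14) were at 0.22 and 0.28, and MFAP4 (4 of 14), mfap4 and MFAP4 (5 of 14) at -0.07, -0.12 and -0.02. Of the 12 macrophage genes 9 were above 0, with a median of 0.08. Neither npsn nor MFAP4 (1 of 14) passed the edgeR test, both having an adjusted p of 1.00, and their part in the heavy chain difference was not tested.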

How the data were processed

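RNA of the adult olfactory epithelium was sequenced in 3 PEA and 3 control libraries. The authors trimmed the reads with Trim Galore 0.6.4 after FastQC 0.11.9, aligned them to the Zv9 zebrafish genome with Bowtie2 at its standard settings and used HTSeq 0.11.2 to count them over genes. The values used here are the deposited raw counts, which the authors left without normalization. Bowtie2 is not a spliced aligner, so reads across a segment join or a splice to the constant exons may be lost. The sources used here name no annotation release and no HTSeq setting for strand or multiple alignments. The table's normalized values, group means and fold changes, made by the authors, were not used.

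All genes were fitted in edgeR 4.0.16 (R 4.3.3; filterByExpr, TMM, quasi-likelihood test on condition), with Benjamini-Hochberg adjustment and a threshold of 0.05, and again with DESeq2 1.42.0 without the filter. The scripts were tested on simulated data. Log2 fold changes are PEA over control, with the SE taken as the absolute change over the square root of F. DESeq2 values are given for genes under the filter. Shares have Wilson 95% intervals. Current names were found for 43 of the 56 identifiers, and names follow the table otherwise. Named were all constant and joining genes, the genes singled out by the study and the 15 variable segments with the most counts. Of each other list the 3 most read genes were named, plus pax5, cd79a, prdm1a and rag1. Some genes were named after their values were seen. These were ighv5-1, ighv5-2, blnk, cd22, CD22, CXCR5, CD37, cd40, npsn, mpx, lect2l, mmp13a, the MFAP4 genes, igl2c1 and genes read in a single library or group. A gene named tgs1, which matched the B cell list only through a projected symbol, was left out of it. The members and lists were chosen with earlier results of these data known. An item named by this rule is not reported here. Groups were taken from the sample labels. Alternatives were another normalization, no or a stricter filter, DESeq2, a replicate block, each library left out, and, added after seeing the data, the libraries numbered 2 and 3 only.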

Additional observations from a re-analysis of the deposited data

How the results depend on the processing

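DESeq2 called 1 heavy chain gene where edgeR called 0, namely ighm, with a log2 fold change of 1.41 and an adjusted p of 0.00761; the cause was not tested. Of the members above the filter 4 of 5 had a log2 fold change above 0, against 32 of 44 with no filter and 33 of 44 by DESeq2, which keep more genes. With at least 3 counts asked for, 9.67 variable segments were read per library on average, against 22.8 with 1 count. The fold change of ighd ran between -0.060 (without PEA library 3) and 0.89 when any 1 library was left out. For ighv14-1 the main -0.01 became 0.0019 with DESeq2's size factors, 0.043 by DESeq2 and 0.55 with the replicate block, and lay between -1.10 and 3.08 when any 1 library was left out (0.07 without PEA library 1, 0.56 without PEA library 3). Leaving out any 1 library, ighv7-1 ran between -0.32 (without PEA library 1) and 4.09, ighv5-3 between -0.071 (without PEA library 1) and 1.20, and ighv3-2 between -2.56 (without PEA library 2) and 4.13. With the libraries numbered 2 and 3 only, ighv7-1 was at -0.59, ighv5-3 at -0.38, ighv3-2 at 4.68, ighv13-2 at 1.48, ighv2-1 at 4.26, ighv5-7 at 3.84, ighv14-1 at -0.43 and ighj2-2 at 1.78. Leaving out any 1 library, the log2 ratio of the heavy chain sum lay between 1.07 and 1.58 and that without ighm between 0.76 and 1.30. The sample titles number the libraries as Group 1, Group 2 and Group 3, each with a PEA and a control library. The main fit did not take these numbers to pair the libraries. The correlations of same-numbered deviations were 0.17, -0.15 and 0.14, and both libraries numbered 1 were high in fkbp5. With 3 libraries on each side, these values do not settle whether the numbers pair the libraries. With the replicate block edgeR called 0 heavy chain genes and ighm had a log2 fold change of 1.37. Depth limits the segments read 1 or 2 times in a library, since a count of 0 elsewhere allows up to 3 counts.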
